A study of Mus musculus with 28 samples.

Results

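The leukocyte actin and Rac2 signalling genes described here are 10 mouse genes, Rac2, Vav1, Arhgdib, Nckap1l, Was, Coro1a, Gmfg, Lcp1, Lsp1 and Laptm5, of the 24015 genes in the deposited count table. They were found by gene symbol from a list chosen by their measured levels over the populations of these same data. Their levels and the differences between populations are therefore given as descriptions, with no p-value. The number of them past the threshold of the fit over all genes is printed beside the share of all genes past it, and nothing is read from that number or from its median, since the same levels chose the genes. All 10 genes were in the table, and all 10 passed the filter on low counts, Nckap1l through its counts in the pro-HSC/HPC, pre-HSC I and pre-HSC II libraries.

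RNA was counted in 28 libraries, each made from a pool of 100 sorted cells, across 9 populations of the mouse embryonic aorta region during the emergence of blood. Hemogenic endothelium (HE), the endothelium that turns into blood, had 4 libraries at embryonic day E8.5 and 3 each at E9.5 and E10.5, and endothelial cells (EC) of the same days had 3 libraries each. The blood-forming populations were pro-HSC/HPC at E9.5, where HPC is a hematopoietic progenitor cell, and pre-HSC I and pre-HSC II at E10.5, taken as precursors of hematopoietic stem cells (HSC), with 3 libraries each. All embryos, those giving the EC included, carried the transgene named 23GFP, and which cells express it is not given in the sources used here. AGM+VU is the tissue named for E10.5 and PAS+VU that for the earlier days, abbreviations that the sources used here do not spell out, and the sort gates are not given in them either. The series text calls the replicates biological, but nothing says that they came from separate embryos or litters, so the spread between them may be partly technical.

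Library totals lay between 16308918 and 31405603 counts. Levels are given in CPM, counts normalised to the scaled total of each library. The 8 endothelial marker genes summed to 424 to 499 CPM in pre-HSC II, 1150 to 1640 CPM in pre-HSC I, 2290 to 2510 CPM in pro-HSC/HPC, and 1990 to 4140 CPM over the HE and EC libraries. Ptprc, which encodes the leukocyte surface protein CD45, averaged 100.0 ± 34.4 CPM in pre-HSC II and 11.4 ± 5.06 CPM in pre-HSC I (SD, n = 3 each), and at most 0.707 CPM in any HE or EC population. In pro-HSC/HPC it had only 72 counts summed over the libraries, against 1 count in E9.5 HE. In pools, fewer expressing cells and less RNA per expressing cell cannot be told apart.

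Rac proteins are small GTPases that switch on branched actin assembly at the leading edge of a moving cell. Rac1 is made in most cell types, and Rac2 mainly in blood cells, where it drives migration, adhesion and the phagocyte oxidase. Vav1 loads Rac with GTP in blood cells, and Arhgdib holds Rac and related GTPases in the cytosol. Rac acts on branched actin through the WAVE complex, of which Nckap1l (also called Hem1) is the blood-cell subunit and Nckap1 the subunit of other cells, while the Was protein, WASP, turns on the same Arp2/3 actin nucleator downstream of Cdc42. Coro1a binds actin filaments, Gmfg takes apart Arp2/3 branches, Lcp1 (L-plastin) bundles filaments, and Lsp1 is a filament-binding protein of leukocytes. Laptm5 is a lysosomal membrane protein of blood cells with no known place in the actin machinery.

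In the coordinates of the count table (mm9), Rac2 lies on chromosome 15 at 78389599 to 78403213 and Nckap1l on the same chromosome at 103284256 to 103329231. Vav1 is on chromosome 17 at 57418523 to 57468659, Arhgdib on chromosome 6 at 136872230 to 136890238, and the Was gene on chromosome X at 7658592 to 7667617. Coro1a, Gmfg and Lsp1 share chromosome 7, at 133843288 to 133848268, 29222466 to 29231914 and 149646717 to 149680773. Lcp1 is on chromosome 14 at 75530930 to 75630649 and Laptm5 on chromosome 4 at 130469249 to 130492063. No exon of any of the 10 overlapped an exon of another gene model in the table, and counts are over exons.

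Start-site windows of RefSeq (GRCm38.p6, 250 bases before to 50 after a start) were matched by symbol for 7 of the 10 genes, in 12 windows. The windows of the Was and Vav1 genes are shown as examples that hold the word AGGAAGT, a core of binding sites of ETS factors. One of the Coro1a windows is shown beside them as an example without the word. The choice was made by the word and not by levels. All 7 matched genes but Lcp1 had lower means in every HE and EC population than in pre-HSC II. No window of Coro1a, Gmfg, Laptm5 or Lcp1 holds the word. Capitals mark AGGAAGT or its reverse complement ACTTCCT, and TGTGGT, a core of RUNX sites. Each line reads 5′ to 3′ on the strand of the gene.
Was, GRCm38.p6 chrX:8090442-8090741, minus strand: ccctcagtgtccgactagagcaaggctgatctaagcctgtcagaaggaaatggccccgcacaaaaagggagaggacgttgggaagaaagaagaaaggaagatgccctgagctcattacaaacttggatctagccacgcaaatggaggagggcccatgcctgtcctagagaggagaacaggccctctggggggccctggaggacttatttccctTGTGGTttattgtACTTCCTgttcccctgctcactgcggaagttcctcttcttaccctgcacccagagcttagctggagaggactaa
Vav1, GRCm38.p6 chr17:57278850-57279149, plus strand: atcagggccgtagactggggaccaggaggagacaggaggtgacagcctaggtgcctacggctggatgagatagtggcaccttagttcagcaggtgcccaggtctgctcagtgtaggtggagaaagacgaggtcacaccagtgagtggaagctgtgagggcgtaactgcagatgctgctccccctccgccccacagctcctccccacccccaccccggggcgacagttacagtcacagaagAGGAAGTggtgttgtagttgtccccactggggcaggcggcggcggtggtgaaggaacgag
Coro1a, GRCm38.p6 chr7:126704767-126705066, minus strand: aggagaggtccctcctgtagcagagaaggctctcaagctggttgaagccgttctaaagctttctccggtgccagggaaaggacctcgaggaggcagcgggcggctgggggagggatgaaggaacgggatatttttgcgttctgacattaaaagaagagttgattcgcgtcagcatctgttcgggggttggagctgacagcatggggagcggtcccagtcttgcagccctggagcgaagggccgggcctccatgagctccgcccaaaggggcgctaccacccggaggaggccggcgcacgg

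Both strands were searched for each word, and positions are counted from the annotated start. In the Was window the ETS word began at -24 and the RUNX word at -37, and in the Vav1 window the ETS word began at -10. The ETS word was in windows of 3 of the 7 matched genes (Was, Vav1 and Arhgdib), against 10.7% of all 27025 genes with windows. TGTGGT or ACCACA was in windows of 3 of the 7 (Was, Gmfg and Arhgdib), against 18.9% of genes, and AGATAA or TTATCT, a core of GATA sites, in a window of 1 (Arhgdib), against 12.7%. Counted by window, the ETS, RUNX and GATA words were in 3, 3 and 1 of the 12, against 9.4%, 16.8% and 11.2% of all 32851 windows. The shares by gene do not allow for the number of windows of each gene. A word in a window is no measurement of binding.

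Across the 9 populations the 10 genes did not follow a single course. All but Lcp1 had their highest mean in pre-HSC II and a lower mean in every HE and EC population. For Rac2, Vav1, Nckap1l, Was and Coro1a, every pre-HSC I library also stood above every HE and EC library. In E8.5 EC, Was averaged 12.9 CPM and Coro1a 12.4 CPM. Vav1 averaged 5.07 CPM there, against 4.23 CPM in pro-HSC/HPC, with overlap. Arhgdib, Laptm5, Gmfg and Lcp1 were already at 19.3 to 121 CPM on average in E8.5 HE. Lsp1 stayed between 5.35 and 10.54 CPM in 8 populations and averaged 51.2 CPM in pre-HSC II. The mean level of the 10 genes, in log2(CPM + 1), was 6.95 ± 0.245 in pre-HSC II, 5.69 ± 0.298 in pre-HSC I and 4.03 ± 0.127 in E10.5 HE (SD, n = 3 each). It was 4.54 ± 0.141 in pro-HSC/HPC and 3.90 ± 0.0972 in E9.5 HE (n = 3 each), and 3.60 ± 0.0898 in E8.5 HE (n = 4) against 3.29 ± 0.178 in E8.5 EC (n = 3). On the same scale E9.5 EC stood at 3.42 ± 0.0108 and E10.5 EC at 3.69 ± 0.0235.

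**Figure D1:**
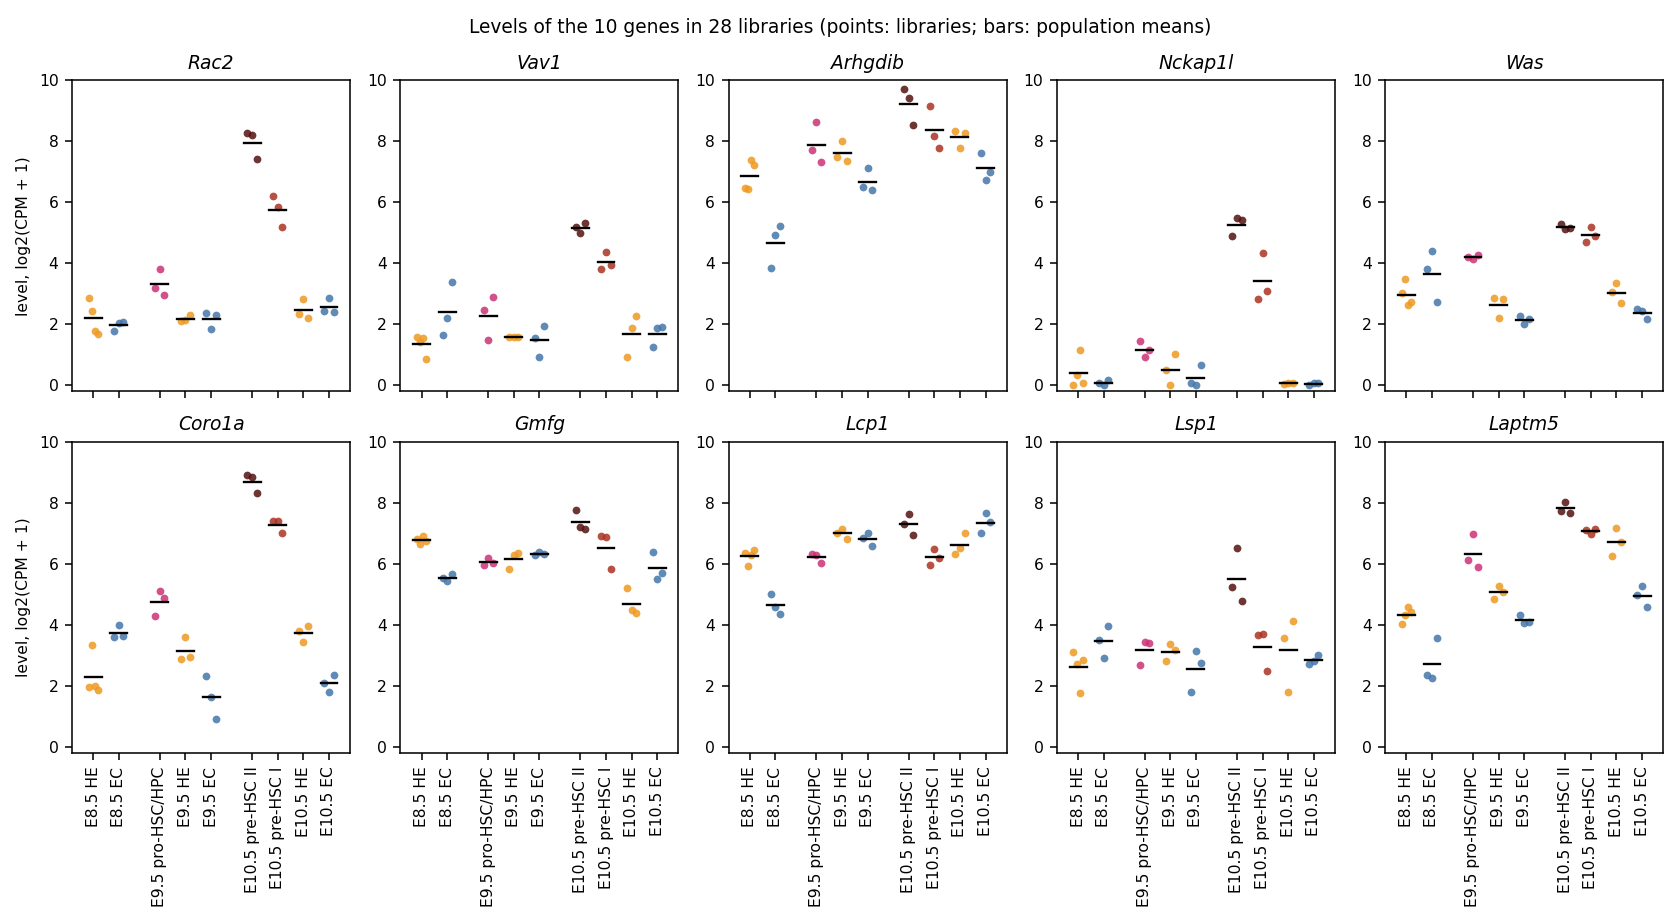
Level of each of the 10 genes, as log2(CPM + 1), in every library (points, coloured by population type) with the population mean (bar); days run left to right, and within a day the blood-forming population stands left of HE and HE left of EC. Rac2, Nckap1l, Vav1 and Coro1a stand highest in pre-HSC II and next in pre-HSC I, whereas Lcp1 overlaps between pre-HSC II (mean 159 CPM) and E10.5 EC (mean 165 CPM).

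Among the genes of the Rac switch, Rac2 had 305, 291 and 170.2 CPM in the 3 pre-HSC II libraries, 72.9, 55.9 and 35.7 CPM in pre-HSC I, and 4.00, 6.14 and 3.64 CPM in E10.5 HE. The 3 populations did not overlap. The log2 difference was 3.58 ± 0.38 (SE) between pre-HSC I and HE and 2.22 ± 0.36 between pre-HSC II and pre-HSC I. At E9.5 Rac2 had 8.01, 13.0 and 6.72 CPM in pro-HSC/HPC and 3.31, 3.36 and 3.94 CPM in HE, a log2 difference of 1.39 ± 0.36. Each pro-HSC/HPC library stood above every HE and EC library of the series, and every one of them below the lowest pre-HSC I library. Rac2 lay between 2.19 and 6.25 CPM in all HE and EC libraries, with log2 differences between HE and EC of 0.40 ± 0.34 at E8.5, -0.01 ± 0.36 at E9.5 and -0.11 ± 0.36 at E10.5.

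Vav1, the exchange factor, had 35.7, 30.5 and 39.3 CPM in pre-HSC II, 13.0, 19.7 and 14.2 CPM in pre-HSC I and 0.90, 2.65 and 3.77 CPM in E10.5 HE. It was higher in each step with no overlap, by 1.17 ± 0.56 and 2.68 ± 0.59 on the log2 scale (SE). In pro-HSC/HPC it had 4.53, 1.79 and 6.35 CPM, a range that holds the 3 E9.5 HE values of 1.99, 2.01 and 2.02 CPM. In the E8.5 libraries it had 2.02, 1.69, 1.90 and 0.806 CPM in HE and 2.13, 3.61 and 9.46 CPM in EC, so all HE values lay under all EC values (log2 difference -1.65 ± 0.53).

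Arhgdib, the GTPase inhibitor, had the highest mean of the 10 genes in CPM per kilobase in every population but E8.5 EC, where Gmfg did. It had 831, 686 and 371 CPM in pre-HSC II, 568, 289 and 220.0 CPM in pre-HSC I and 325, 218 and 305 CPM in E10.5 HE. Pre-HSC I overlapped both of the others, while pre-HSC II stood above HE. The log2 differences were 0.81 ± 0.40 between pre-HSC II and pre-HSC I and 0.34 ± 0.40 between pre-HSC I and HE (SE). Its clearest difference was within the E8.5 endothelium, with 87.3, 84.6, 165 and 149 CPM in HE and 13.4, 29.5 and 36.4 CPM in EC (log2 difference 2.20 ± 0.40). At E9.5 and E10.5 HE stood above EC by 0.95 ± 0.40 and 0.99 ± 0.40.

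Nckap1l, the WAVE complex subunit of blood cells, was at 1.24 CPM or less in every HE and EC library. It had 28.4, 43.6 and 41.8 CPM in pre-HSC II and 6.01, 18.9 and 7.43 CPM in pre-HSC I. In E10.5 HE each of the 3 libraries had 1 count. The summed counts were 693 in pre-HSC I and 3 in HE, a depth-scaled ratio of 254 with a 95% exact counting interval of 86.5 to 1230, which covers counting error only. In pro-HSC/HPC it had 1.72, 0.875 and 1.23 CPM, and in E9.5 HE 0.425, 0 and 1.03 CPM, which overlap. At E8.5 it had 34 counts over 4 HE libraries, 26 of them in 1 library, and 3 counts over the EC libraries.

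The Was gene, which encodes WASP, had 38.3, 33.6 and 34.7 CPM in pre-HSC II and 25.2, 35.5 and 29.0 CPM in pre-HSC I, with overlap and a log2 difference of 0.25 ± 0.36 (SE). Both populations stood above E10.5 HE at 7.24, 9.14 and 5.53 CPM, pre-HSC I by 2.03 ± 0.38. In pro-HSC/HPC it had 17.3, 16.8 and 18.4 CPM, against 6.19, 3.58 and 6.14 CPM in E9.5 HE (log2 difference 1.72 ± 0.38). In E8.5 HE it had 7.07, 10.2, 5.18 and 5.64 CPM, and in E8.5 EC 13.1, 19.9 and 5.58 CPM, which overlap (log2 difference -0.87 ± 0.34).

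Of the filament-binding genes, Coro1a reached 485, 458 and 321 CPM in pre-HSC II and 170.3, 168 and 129 CPM in pre-HSC I, against 12.9, 9.93 and 14.7 CPM in E10.5 HE and 3.27, 2.50 and 4.07 CPM in E10.5 EC. No library of 1 population reached into the next. The log2 differences were 1.44 ± 0.40, 3.64 ± 0.44 and 1.93 ± 0.43 (SE) in that order of steps. At E9.5 it had 18.4, 33.8 and 28.5 CPM in pro-HSC/HPC, 6.33, 11.3 and 6.71 CPM in HE and 3.95, 2.12 and 0.874 CPM in EC. The E9.5 populations did not overlap either, with log2 differences of 1.73 ± 0.41 between pro-HSC/HPC and HE and 1.80 ± 0.43 between HE and EC. At E8.5 the order of HE and EC was the other way round, with 2.87, 9.03, 3.00 and 2.64 CPM in HE and 11.2, 14.8 and 11.3 CPM in EC (log2 difference -1.50 ± 0.38).

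Gmfg, the branch-disassembly factor, was lowest in the E10.5 HE. It had 118, 116 and 56.0 CPM in pre-HSC I against 36.2, 21.3 and 20.1 CPM in E10.5 HE (log2 difference 1.90 ± 0.28, SE), and E10.5 HE lay under the 83.2, 44.0 and 51.5 CPM of E10.5 EC (-1.20 ± 0.28). Earlier the sign was opposite, with 111, 101, 119 and 106 CPM in E8.5 HE and 45.6, 42.3 and 50.02 CPM in E8.5 EC (1.25 ± 0.26). At E9.5 pro-HSC/HPC, HE and EC all lay between 55.4 and 82.9 CPM.

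Lcp1, the filament bundler, was the gene least like the others, with r = 0.272 over population means (n = 9) to the mean of the other 9 in log2(CPM + 1). It had 156, 199 and 122 CPM in pre-HSC II, 61.8, 88.2 and 72.7 CPM in pre-HSC I, 79.0, 91.1 and 129 CPM in E10.5 HE and 127, 202 and 166 CPM in E10.5 EC. Pre-HSC II stood above pre-HSC I by 1.10 ± 0.24 on the log2 scale (SE), while pre-HSC I and HE overlapped (-0.42 ± 0.24). In the E9.5 blood-forming cells it was lower than in HE, with 79.1, 78.0 and 64.4 CPM in pro-HSC/HPC and 127, 142 and 113 CPM in HE (-0.79 ± 0.24). At E8.5 HE had 81.2, 60.2, 77.6 and 87.3 CPM, against 31.3, 22.9 and 19.4 CPM in EC (1.64 ± 0.23).

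Lsp1 had 36.7, 90.5 and 26.4 CPM in pre-HSC II and 11.7, 12.1 and 4.56 CPM in pre-HSC I, a log2 difference of 2.44 ± 0.58 (SE). Pre-HSC I overlapped E10.5 HE, at 10.8, 2.51 and 16.6 CPM (-0.08 ± 0.56). The 90.5 CPM of replicate 2 was the highest value of Lsp1 in the series. Laptm5, the lysosomal gene, had 211, 263 and 204 CPM in pre-HSC II, 138, 124 and 139.8 CPM in pre-HSC I and 75.3, 142 and 103 CPM in E10.5 HE, against 30.4, 37.6 and 22.9 CPM in E10.5 EC. Its largest step within E10.5 was that between HE and EC, at 1.82 ± 0.32, and pre-HSC I overlapped HE (0.33 ± 0.31). In pro-HSC/HPC it had 69.0, 124 and 59.1 CPM, above the 27.97, 38.1 and 32.6 CPM of E9.5 HE (1.36 ± 0.32), and in E8.5 HE 15.1, 18.9, 22.9 and 20.4 CPM, above the 4.15, 3.81 and 10.8 CPM of E8.5 EC (1.65 ± 0.32).

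**Figure D2:**
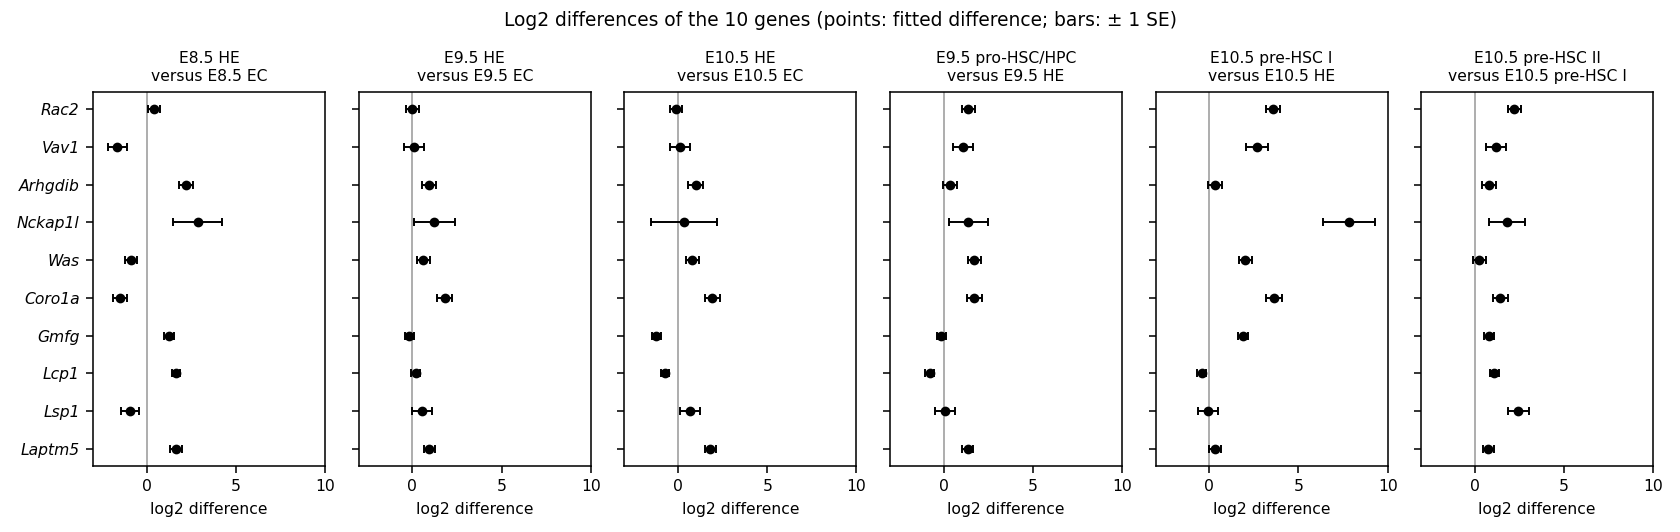
Fitted log2 difference of each gene (point) with 1 SE on each side (bar) in the 6 comparisons within a day; positive values are higher in the population named first. Between HE and EC the 10 genes fall on both sides of 0 at E8.5 and E10.5, and between pre-HSC II and pre-HSC I all 10 lie above 0. The value of Nckap1l between pre-HSC I and HE rests on 3 counts in HE.

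Over the population means in log2(CPM + 1), Pearson's r between any pair of Rac2, Vav1, Nckap1l, Was and Coro1a was 0.848 to 0.990 (n = 9 populations). It was 0.961 for Laptm5 and Arhgdib, and -0.18 to 0.70 for Lcp1 with each of the other 9. These are descriptions over 9 populations that share the libraries and their scaling. Of 9212 named genes outside the 10 with at least 10 CPM in a population, the 6 whose means were most like the mean of the 10 were Il18rap (r = 0.993), Pts (0.990), Btk, Gpr171 (0.987 each), Ptpn22 and Fut8 (0.985 each). Btk, a kinase of B-cell and myeloid signalling, averaged 54.2 CPM in pre-HSC II, 17.0 CPM in pre-HSC I and 0.922 CPM in E10.5 HE, and Fut8, a fucosyltransferase, 198 CPM in pre-HSC II, 104 CPM in pre-HSC I and 32.8 CPM in E10.5 HE.

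Every gene of the group but Lsp1 was set beside relatives of the same family that other cells use. The share of a family is the member's CPM per kilobase over the sum of the member and its relatives, in percent. Relatives with similar sequence can share reads, and how the counting treated reads with several matches is not given in the sources used here, so these shares carry that uncertainty. The blood-cell member made up a larger mean share of its family in pre-HSC II than in any other population in all 9 families. The choice of the members by their levels in these populations favours this outcome, so nothing is read from it.

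Nckap1l and Nckap1 moved in opposite directions from E10.5 HE to pre-HSC II, the only population in which Nckap1l stood above Nckap1. The levels did not simply swap. Nckap1l averaged 8.04 CPM per kilobase in pre-HSC II, against 44.7 for Nckap1 in E10.5 HE. Nckap1l held 79.0% ± 8.15 of the pair in pre-HSC II, 13.9% ± 9.06 in pre-HSC I and 0.0203% ± 0.0017 in E10.5 HE (SD, n = 3 each). Nckap1, the broad WAVE subunit, averaged 9.05 ± 2.23 CPM in pre-HSC II, 62.4 ± 6.88 CPM in pre-HSC I and 197 ± 21.1 CPM in E10.5 HE. It fell at both steps, with a log2 difference of -2.78 ± 0.26 between pre-HSC II and pre-HSC I (edgeR adjusted p = 3.55e-08) and -1.66 ± 0.25 between pre-HSC I and HE (edgeR adjusted p = 0.000106). Both calls held whichever library was left out. The 8 mesenchyme and smooth muscle markers had sums of 32.8 to 36.6 CPM in pre-HSC II, 132 to 362 CPM in pre-HSC I and 220.0 to 828 CPM in E10.5 HE, and none of the 8 was at 0 in any of these. Their part in the levels of Nckap1 and Pls3 was not tested.

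The plastin shares shifted as well, with Pls3 lower at both steps and Lcp1 higher only in pre-HSC II over pre-HSC I. Lcp1 held 84.3% ± 3.07 of its family in pre-HSC II, 47.1% ± 16.5 in pre-HSC I and 20.7% ± 4.36 in E10.5 HE, although its own level in pre-HSC I overlapped that of HE. Pls3 (T-plastin), the broad bundler, averaged 19.8 ± 1.17, 68.5 ± 32.1 and 304 ± 2.13 CPM in those populations (SD, n = 3 each). It fell by 2.15 ± 0.41 on the log2 scale between pre-HSC I and HE (edgeR adjusted p = 0.00131). Between pre-HSC II and pre-HSC I it fell by 1.79 ± 0.41 (edgeR adjusted p = 0.00609), a call lost when pre-HSC I replicate 1 was left out.

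**Figure D3:**
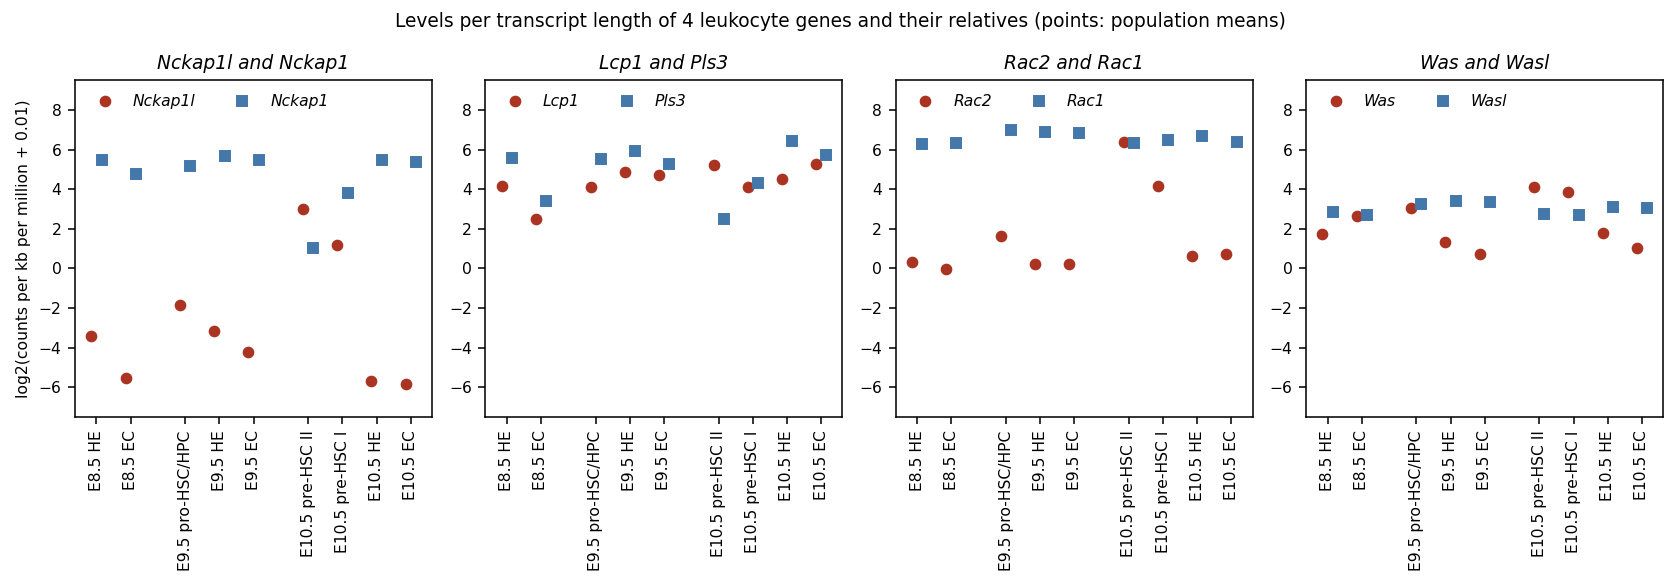
Population means, in log2 of CPM per kilobase with a small offset, of Nckap1l and Nckap1, Lcp1 and Pls3, Rac2 and Rac1, and Was and Wasl across the 9 populations. Nckap1 averages 2.05 CPM per kilobase in pre-HSC II, where Nckap1l averages 8.04, then 14.2 for pre-HSC I and 44.7 for E10.5 HE, while Rac1 stays between 79.4 and 103 in those populations.

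For the Rac pair the difference lay with Rac2. Rac1 averaged 180.1 CPM in pre-HSC II, 204 CPM in pre-HSC I and 233.5 CPM in E10.5 HE and was not called in either step. Rac2 held 51.0% ± 11.7 of the Rac family in pre-HSC II, 16.8% ± 5.91 in pre-HSC I and 1.47% ± 0.522 in E10.5 HE (SD, n = 3 each). The Was gene held 71.9% ± 0.946, 68.5% ± 5.38 and 28.5% ± 2.08 of its pair with Wasl, its broad relative, in the same populations. Its share was 47.0% ± 2.21 in pro-HSC/HPC against 19.0% ± 4.14 in E9.5 HE, and 45.7% ± 16.2 in E8.5 EC. Coro1a held 78.9% ± 2.60, 55.9% ± 2.52 and 8.40% ± 1.03 of its family in pre-HSC II, pre-HSC I and E10.5 HE.

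Vav1 stayed below the sum of its relatives Vav2 and Vav3 in every population, in CPM per kilobase. It held 35.6% ± 6.54 of its family in pre-HSC II, 26.0% ± 0.908 in pre-HSC I and 7.65% ± 5.17 in E10.5 HE (SD, n = 3 each). Its share was 12.4% ± 6.96 in E8.5 EC and 8.56% ± 3.70 in pro-HSC/HPC. Arhgdib held 85.5% ± 2.17 of its family in pre-HSC II (n = 3), 61.1% ± 1.81 in E9.5 HE against 41.9% ± 1.02 in E9.5 EC (n = 3 each), and 30.2% ± 12.2 in E8.5 HE (n = 4) against 8.04% ± 4.99 in E8.5 EC (n = 3). Gmfg held 63.9% ± 7.04 in E9.5 HE against 62.2% ± 5.40 in E9.5 EC, and 71.9% ± 3.94 in E8.5 HE against 46.2% ± 2.14 in E8.5 EC. Laptm5 held 68.2% ± 8.13 of the family it shares with Laptm4a and Laptm4b in pre-HSC II and 2.91% ± 1.14 in E8.5 EC.

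**Figure D4:**
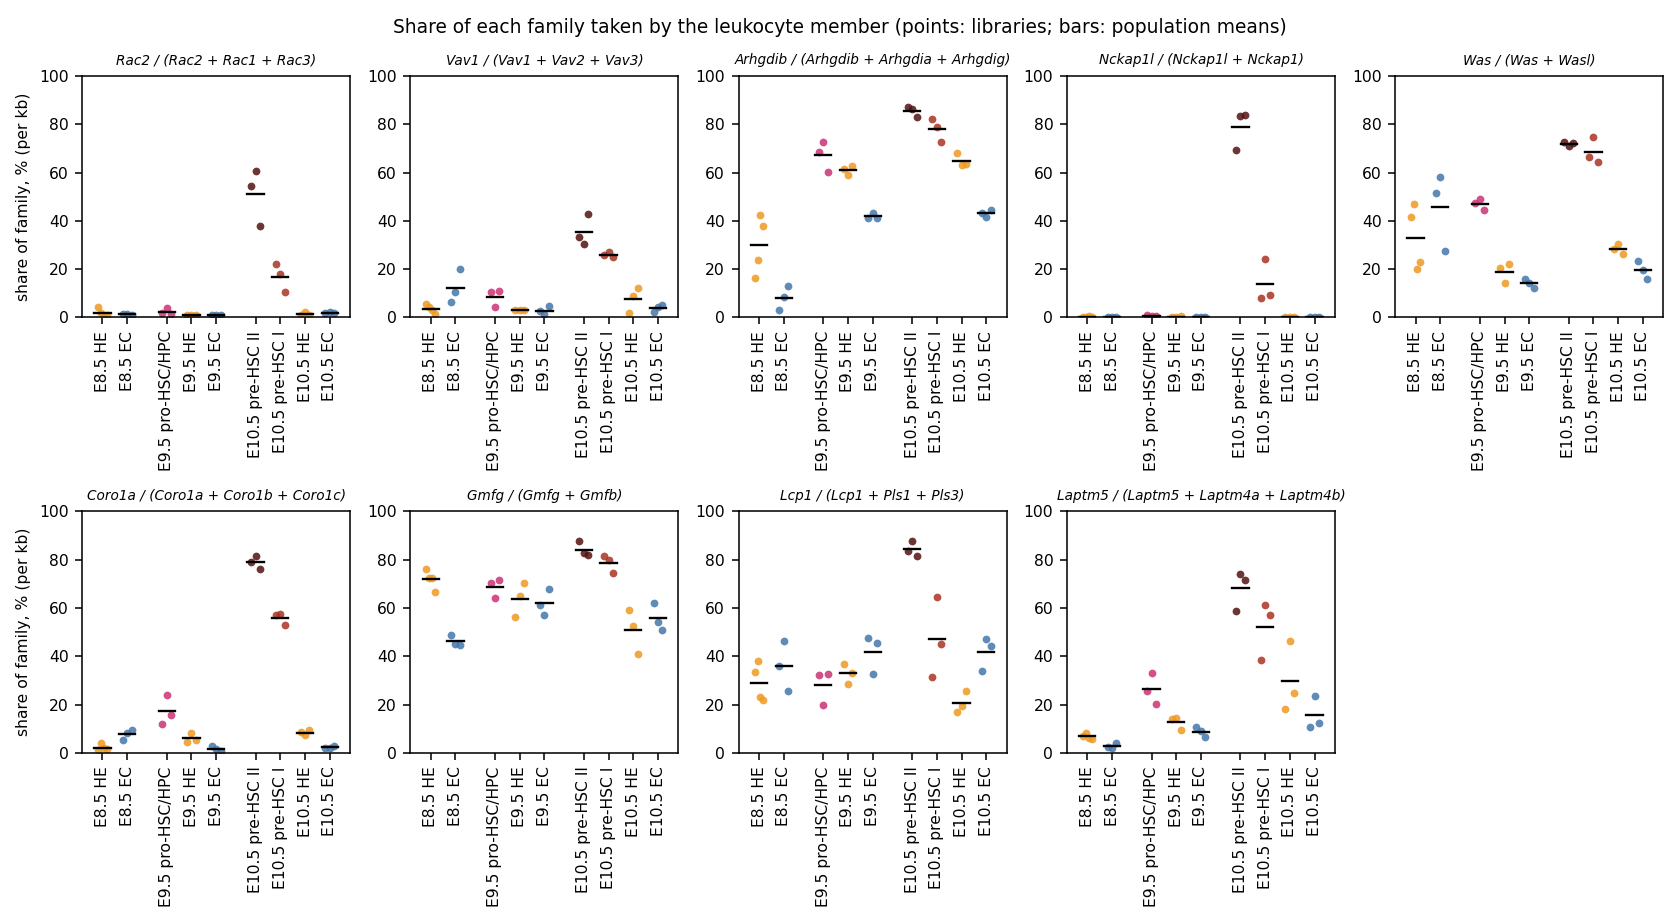
Share of each of 9 gene families taken by the member of the group, in percent of CPM per kilobase, in every library (points) with the population mean (bar). In pre-HSC II the mean share runs from 35.6% for Vav1 to 85.5% for Arhgdib, and in each panel it is the highest of the 9 populations. The choice of the genes by their levels favours this, and nothing is read from it.

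In all, 6 lists of related genes, none of them holding a member, were tested in the same comparisons: relatives, WAVE/WASP/Arp2/3 genes, filament turnover genes, regulators and effectors of Rac and related GTPases, phagocyte oxidase genes, and leukocyte integrin and adaptor genes. Of their 98 genes, 97 passed the filter on low counts. A gene counts as called at an edgeR adjusted p under 0.05 over all 15238 genes tested. The comparisons within a day share populations, so they are not independent of each other.

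Between E8.5 HE and E8.5 EC, 12 of the 97 list genes rose and 1 fell (all genes: 5.13% higher, 1.82% lower). The leukocyte integrin and adaptor list gave 6 of the 12. Lyn, a Src-family kinase, averaged 77.1 ± 18.1 CPM in HE (n = 4) and 12.1 ± 6.29 CPM in EC (n = 3), a log2 difference of 2.68 ± 0.27 (edgeR adjusted p = 2.08e-07). Lcp2, the adaptor SLP-76, averaged 10.2 ± 7.52 CPM in HE and 0.1001 ± 0.0501 CPM in EC (6.54 ± 1.05, edgeR adjusted p = 0.000163). Capg, a filament-capping protein, rose by 2.79 ± 0.42 (edgeR adjusted p = 6.14e-05), Prex1, a Rac exchange factor, by 1.80 ± 0.41 (edgeR adjusted p = 0.00554), and Tmsb4x, which sequesters actin monomers, by 1.34 ± 0.31 (edgeR adjusted p = 0.00673). Pls3 also rose here, by 2.17 ± 0.40 (edgeR adjusted p = 0.000823), the direction of Lcp1. Of lower rank were the kinase Syk (1.496 ± 0.39, edgeR adjusted p = 0.0175) and Arhgap25, which switches Rac off (1.24 ± 0.36, edgeR adjusted p = 0.0325). Lyn, Lcp2, Capg, Prex1, Tmsb4x and Pls3 kept their call whichever library was left out, while 7 list genes were called without EC replicate 2. Those that did not hold included Swap70, which binds Rac, the only one that fell (-0.85 ± 0.25, edgeR adjusted p = 0.0376), and Itgb2, the integrin chain CD18, with 173 counts in HE and none in EC, at least 40.1-fold higher (edgeR adjusted p = 0.0248), mostly from 1 HE library at 5.90 CPM.

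Of the 10 genes themselves, 4 were called higher (Lcp1, Laptm5, Arhgdib, Gmfg) and 1 lower (Coro1a) in E8.5 HE, against 5.13% of all genes called higher and 1.82% lower. Coro1a was no longer called without EC replicate 2, HE replicate 3 or HE replicate 4, nor when only these populations were fitted. The median log2 difference of the 10 was 0.82, that of the list genes 0.29 and that of all genes 0. The summed macrophage markers were 19.3 to 60.8 CPM in E8.5 HE and 7.81 to 34.5 CPM in E8.5 EC, over 10 genes of which C1qa, C1qb, C1qc and Fcgr1 were at 0 in EC. Their part in these differences was not tested.

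Between E9.5 HE and E9.5 EC no list gene and none of the 10 genes was called by edgeR, against 0.328% of all genes called higher and 0% lower. An unadjusted p under 0.05 in edgeR was found for 11 list genes, and for 984 of all 15238 genes. DESeq2 called 2 list genes and 1 of the 10, and 174 genes over all it tested. Without EC replicate 1, edgeR called 1 of the 10. Coro1a had the largest difference of the 10, at 1.80 ± 0.43 on the log2 scale. The median was 0.58 for the 10 genes, 0.09 for the list genes and -0.012 for all genes.

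Between E10.5 HE and E10.5 EC, 7 list genes rose and 1 fell. Dock2 (a Rac exchange factor found mainly in leukocytes) reached 7.46 ± 3.17 CPM in HE and 0.173 ± 0.0602 CPM in EC (SD, n = 3 each), a log2 difference of 5.37 ± 1.02 (edgeR adjusted p = 0.00166). Plcg2, a phospholipase of leukocyte receptor signalling, averaged 64.6 ± 12.6 CPM in HE and 5.17 ± 0.624 CPM in EC (3.64 ± 0.71, edgeR adjusted p = 0.00239). Those 2 calls held whichever library was left out. Fmnl1, a formin of blood cells, rose by 4.30 ± 0.98 (edgeR adjusted p = 0.0139) and Capg by 1.51 ± 0.40 (edgeR adjusted p = 0.0298). Gmfb, the relative of Gmfg, fell by 0.90 ± 0.23 (edgeR adjusted p = 0.0279), in the same direction as Gmfg. Git2, an Arf regulator that binds Pak kinase partners, rose by 0.80 ± 0.22 (edgeR adjusted p = 0.0397). Btk had 69 counts in HE and 3 in EC, a depth-scaled ratio of 20.2 with an exact counting interval of 6.64 to 100.0 (edgeR adjusted p = 0.0332). Itgb2 had 129 counts in HE and none in EC, at least 37.8-fold higher (edgeR adjusted p = 0.044). The list count was 2 without EC replicate 1, 3 without EC replicate 3 or HE replicate 1, and 5 without HE replicate 3. Of the 10 genes, Coro1a and Laptm5 were called higher and Gmfg lower, against 2.15% and 1.36% of all genes, with a median of 0.51 beside 0.07 for the list genes and -0.0048 for all genes. Gmfg was no longer called without EC replicate 1, HE replicate 2 or HE replicate 3, nor when only these populations were fitted, and Coro1a was not called without EC replicate 2. The 8 mesenchyme and smooth muscle markers summed to 828, 220.0 and 404 CPM in HE and 23.4, 291 and 32.6 CPM in EC, and the 5 cardiac markers to 157, 10.8 and 18.6 CPM in HE and 7.82, 8.14 and 8.49 CPM in EC. Their part in these differences was not tested.

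Between pro-HSC/HPC and E9.5 HE, 3 list genes rose and none fell. Fmnl1 had 433 counts in pro-HSC/HPC and none in HE, at least 122-fold higher (edgeR adjusted p = 0.000647), a call that held whichever library was left out. Dock2 averaged 11.9 ± 3.53 CPM in pro-HSC/HPC and 0.546 ± 0.459 CPM in HE (4.44 ± 0.90, edgeR adjusted p = 0.0095). Btk had 238 counts in pro-HSC/HPC and 5 in HE (5.24 ± 1.03, edgeR adjusted p = 0.00789). Without HE replicate 2 the count was 1. Of the 10 genes, Was, Coro1a and Laptm5 were called higher and none lower, against 0.499% and 0.151% of all genes, with a median of 1.22 beside 0 for the list genes and 0.0232 for all genes. That count was 0 without HE replicate 1, 2 or 3 or pro-HSC/HPC replicate 2, and 1 without pro-HSC/HPC replicate 3.

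The pro-HSC/HPC libraries differed in red-cell RNA. The 8 erythroid markers summed to 12.9 CPM in replicate 1, 12100 CPM in replicate 2 and 4060 CPM in replicate 3, and to at most 27.5 CPM in E9.5 HE. The 8 granulocyte markers summed to 6.25 to 18.1 CPM in pro-HSC/HPC and 0.375 to 1.13 CPM in E9.5 HE, with Ctsg, S100a8, S100a9 and Camp at 0 in pro-HSC/HPC. The 8 megakaryocyte and platelet markers summed to 25.0 to 613 CPM in pro-HSC/HPC and 8.64 to 11.8 CPM in E9.5 HE, and the part of these cells in the differences was not tested. In replicate 1, Rac2, Vav1, Nckap1l, Was, Coro1a and Laptm5 lay above every E9.5 HE library, Arhgdib and Gmfg within the range of HE, and Lcp1 and Lsp1 below it. With replicate 1 as the only pro-HSC/HPC library, a choice made after seeing the data that takes the spread from the other populations and assumes that this library varies like them, 1 list gene and none of the 10 were called.

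Between pre-HSC I and E10.5 HE, 13 of the 97 list genes rose and 4 fell (all genes: 3.1% higher, 3.89% lower). The regulators and effectors of Rac and related GTPases gave 5 of those that rose, the leukocyte integrin and adaptor genes 6 and the phagocyte oxidase genes 2. Dock2 averaged 84.6 ± 30.9 CPM in pre-HSC I and 7.46 ± 3.17 CPM in HE (SD, n = 3 each; 3.50 ± 0.80, edgeR adjusted p = 0.00639). Arhgap30, which switches Rac and related GTPases off, rose by 4.64 ± 0.88 (edgeR adjusted p = 0.00114), Fmnl1 by 4.08 ± 0.81 (edgeR adjusted p = 0.00281), Btk by 4.18 ± 0.86 (edgeR adjusted p = 0.00285), and the kinase Syk by 1.90 ± 0.40 (edgeR adjusted p = 0.00305). Pstpip1, an adaptor that binds WASP, averaged 7.74 ± 3.22 CPM in pre-HSC I and 0.0731 CPM in HE (6.65 ± 1.55, edgeR adjusted p = 0.00732).

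Also higher in pre-HSC I was Pak1, a kinase that active Rac switches on (2.10 ± 0.60, edgeR adjusted p = 0.0312). The oxidase subunit Ncf4 had 74 counts in pre-HSC I and none in HE, at least 27.1-fold higher (edgeR adjusted p = 0.0229). Besides Nckap1 and Pls3, those that fell in pre-HSC I were Cyfip1, a WAVE complex subunit, at 99.1 ± 18.1 CPM in pre-HSC I and 220.2 ± 49.4 CPM in HE (SD, n = 3 each; -1.15 ± 0.21, edgeR adjusted p = 0.000851), and Laptm4b (-0.75 ± 0.23, edgeR adjusted p = 0.0483). None of the 18 filament turnover genes was called here. The calls of Arhgap30, Dock2, Fmnl1, Syk, Nckap1, Cyfip1, Pstpip1, Pls3 and Btk held whichever library was left out, and the count of 17 was 11 without HE replicate 3, 10 without pre-HSC I replicate 2 and 23 (13 higher, 10 lower) without pre-HSC I replicate 1. Of the 10 genes, Rac2, Vav1, Nckap1l, Was, Coro1a and Gmfg were called higher and none lower, against 3.1% and 3.89% of all genes, with a median of 1.97 beside 0.0179 for the list genes and 0.0121 for all genes. Nckap1l entered the fit through the libraries in which it is high.

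Between pre-HSC II and pre-HSC I, 3 of the 97 list genes fell and none rose (all genes: 4.28% lower, 0.144% higher). Besides Nckap1 and Pls3 this was Wipf3, of the family that holds WASP-interacting proteins, at 0.268 CPM in pre-HSC II and 4.63 CPM in pre-HSC I (-4.13 ± 1.15, edgeR adjusted p = 0.0335). Without pre-HSC I replicate 1 the count was 1. The balance of directions depended on the fit, with 11 higher and 2 lower when only the libraries of these populations were fitted and 1 higher and 4 lower by DESeq2. Of the 10 genes, Rac2, Coro1a, Lcp1 and Lsp1 were called higher and none lower, against 0.144% and 4.28% of all genes, with a median of 1.13 beside 0.12 for the list genes and 0 for all genes. That count was 2 without pre-HSC I replicate 3 and 1 without pre-HSC II replicate 2.

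**Figure D5:**
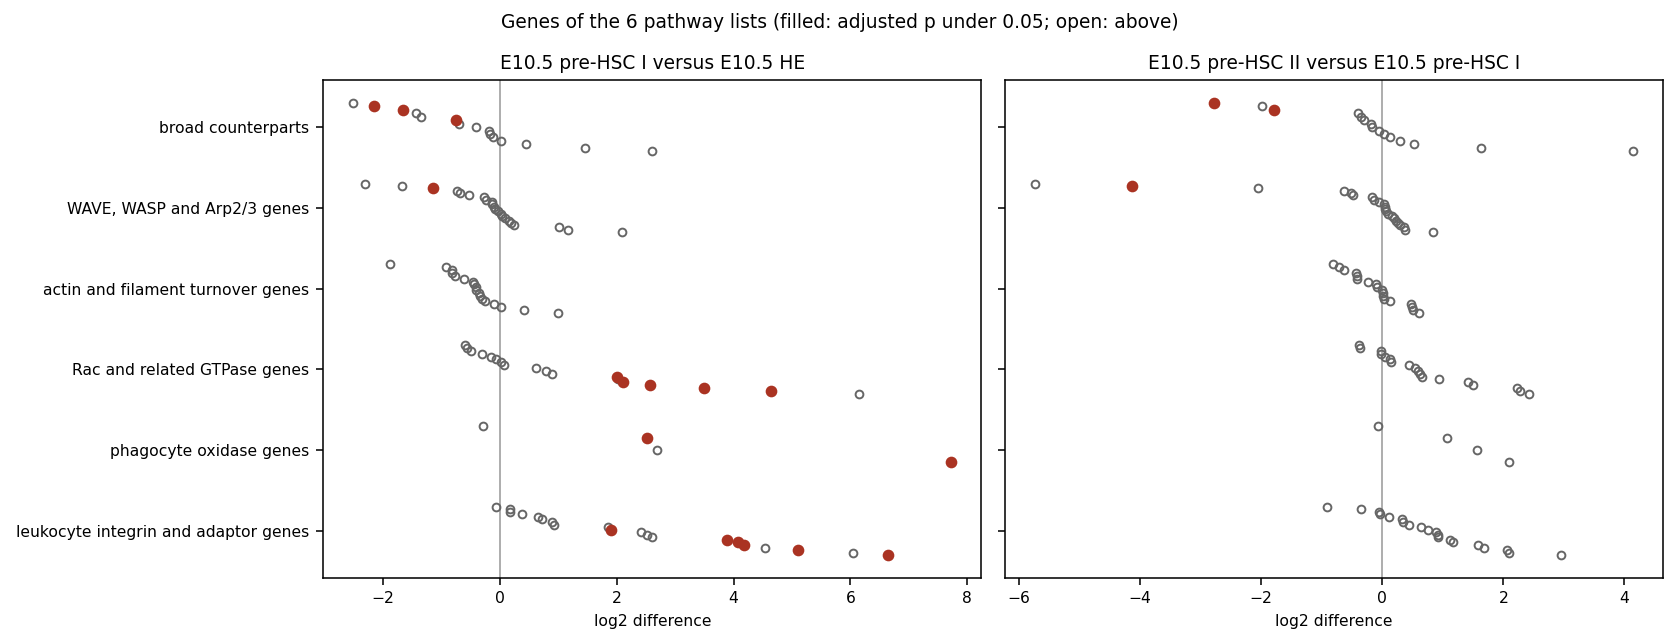
Log2 difference of each list gene (point) between pre-HSC I and E10.5 HE and between pre-HSC II and pre-HSC I, by list; filled points have an edgeR adjusted p under 0.05. In the first comparison 13 filled points lie above 0 and 4 below, and in the second 3 lie below 0 and none above, in the fit over all 28 libraries (11 higher and 2 lower when only the libraries of these populations were fitted).

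Markers of several blood cell types moved with the group. The 8 granulocyte markers summed to 292 to 406 CPM in pre-HSC II, 65.9 to 121 CPM in pre-HSC I and 0.541 to 2.76 CPM in E10.5 HE. S100a8 and S100a9 were at 0 in both pre-HSC populations, and Camp also in pre-HSC I. The 10 macrophage markers summed to 71.2 to 75.5 CPM, 30.5 to 48.5 CPM and 10.6 to 13.4 CPM in the same populations, with C1qa and C1qc at 0 in all of these. The 8 megakaryocyte and platelet markers summed to 191 to 306, 109 to 179 and 5.09 to 28.5 CPM, and the 6 lymphoid markers to 7.33 to 28.6, 2.02 to 2.67 and 0.144 to 0.263 CPM. Erythroid markers summed to 1410 CPM in pre-HSC I replicate 3, which also had the lowest Rac2, Coro1a, Lsp1, Arhgdib and Gmfg of that population. The same library had its highest Laptm5 and the middle values of Nckap1l, Was, Vav1 and Lcp1. The part of these cells in the levels of the 10 genes was not tested.

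Whether the difference between HE and EC itself differed between E10.5 and E8.5 was tested for the list genes, of which 5 passed, against 3.12% of all genes in either direction. Lyn had the smallest p, with 73.0 ± 6.15 CPM in HE and 106 ± 21.3 CPM in EC at E10.5, opposite in sign to E8.5 (difference of the log2 differences -3.22 ± 0.37, edgeR adjusted p = 3.19e-06). The step into blood was compared as pre-HSC I over HE at E10.5 against pro-HSC/HPC over HE at E9.5. No list gene passed in edgeR, against 0.0722% of all genes. An unadjusted p under 0.05 in edgeR was found for 15 list genes, and for 1541 of all 15238 genes. DESeq2 called 1 list gene, and 208 genes over all it tested.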

How the data were processed

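Pools of cells were sorted straight into lysis buffer, and their polyA RNA was turned into libraries with the SMARTer Ultra Low Input chemistry (per the labels' protocols). The authors deposited raw counts per gene with exon coordinates on mm9. The submitters' processing notes list TopHat, SAMtools, Subread, featureCounts 1.6.2 and the build mm9. The strand used, the handling of reads matching several places and the sort gates: not given in the sources used here.

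Of 24015 genes, 15238 passed filterByExpr of edgeR 4.0.16 (minimum count 10) in R 4.3.3. Quasi-likelihood tests were fitted on all 28 libraries with TMM factors and 1 coefficient per population, with Benjamini-Hochberg adjustment over all genes tested and a threshold of 0.05. DESeq2 1.42.0 was an alternative. CPM are counts over the TMM-scaled library size, and 3 counts correspond to 0.108 to 0.188 CPM. Intervals are 95% exact counting intervals, and they and the floor of 3 counts cover counting error only. The method was tested on simulated data. No replicate pair agreed within sampling noise.

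The members and lists were chosen with earlier results of these data known. List genes are named as up to 4 called genes of smallest p per list and comparison, with each member's relatives. Some genes that this rule names are not reported here. Genes most like the group were ranked by Pearson's r over population means of log2(CPM + 1). Promoter windows are from RefSeq, GRCm38.p6.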

Additional observations from a re-analysis of the deposited data

Results flagged for a closer look

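In the 4 libraries of E8.5 HE, the only group large enough for this check, 5 of 36 genes checked had a library standing far from the other 3. Those checked were the 10 and 26 named list genes. For normally distributed values chance gives such a gap in about 1 of 20 groups. That rate does not hold for low counts, where a gene with counts in a single library always passes. Nothing is therefore read from the number of genes. Coro1a had 9.03 CPM in replicate 2, against 2.64 to 3.00 CPM in the others. Itgb2, integrin chain CD18, had 5.90 CPM in replicate 1 and 0 to 0.461 CPM in the others. Ncf4, an oxidase subunit, had 0 CPM in replicate 3 and 1.27 to 1.48 CPM in the others. Btk had 0.0475 CPM in replicate 3 and Fmnl1 0.0448 CPM in replicate 4, each a single count, with 0 in the others.

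The difference between HE and EC differed between E10.5 and E8.5, by a test of the difference itself, for 5 list genes. In log2 units, E10.5 minus E8.5, it was -3.22 ± 0.37 for Lyn (edgeR adjusted p = 3.19e-06), -5.08 ± 1.27 for Lcp2 (edgeR adjusted p = 0.0216), -2.02 ± 0.57 for the Rac exchange factor Prex1 (edgeR adjusted p = 0.0481) and -1.27 ± 0.33 for Vav3, the relative of Vav1 (edgeR adjusted p = 0.0311). For Btk it was 7.33 ± 1.76 (edgeR adjusted p = 0.0175), a fitted value that rests on 1 count in E8.5 HE and 3 counts in E10.5 EC. The count of 5 was 2 without E8.5 EC replicate 1 or 2, 3 without E8.5 HE replicate 3, E10.5 EC replicate 2 or E10.5 HE replicate 3, and 9 without E8.5 EC replicate 3.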

How the results depend on the processing

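Called list genes are given first and called members second, in the order E8.5 HE, E9.5 HE and E10.5 HE (each over EC), pro-HSC/HPC, pre-HSC I and pre-HSC II, where the main counts were 13, 0, 8, 3, 17 and 3 and 5, 0, 3, 3, 6 and 4. DESeq2 called 2 list genes and 1 member for E9.5 HE, 5 list genes each for pro-HSC/HPC and pre-HSC II, 11 for the change of the HE over EC difference (main 5) and 1 for the change of the step into blood (main 0). Over all genes it tested, DESeq2 called 174, 227, 929, 842 and 208 in these comparisons, in that order. Fitting only the populations compared called 6 list genes and 3 members for E8.5 HE, and 5, 7, 13 and 2 list genes for E10.5 HE, pro-HSC/HPC, pre-HSC II and the change of the HE over EC difference. The 13 for pre-HSC II were 11 higher and 2 lower, and the 5 of DESeq2 1 higher and 4 lower, against 0 higher and 3 lower in the fit over all libraries. With pro-HSC/HPC replicate 1 alone, assumed to vary like the other populations, the counts were 1 and 0. The cause of these shifts was not tested.

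Leaving out each library in turn gave 7 to 16, 0 to 0, 2 to 6, 1 to 3, 10 to 23 and 1 to 3 list genes, 2 to 9 and 0 to 1 for the changes of the HE over EC difference and of the step into blood, and 4 to 6, 0 to 1, 2 to 3, 0 to 2, 6 to 6 and 1 to 4 members, with no change of sign among called genes.

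With the replicate number as a block the counts were 11, 0, 7, 3, 16 and 2 list genes and 5, 0, 3, 4, 6 and 4 members, and 5 and 0 for the changes. After the population mean of each gene was subtracted from log2 CPM, the remainders of same-numbered libraries correlated at 0.0174 to 0.201, not every pair over 0.1. These libraries were not treated as pairs. In 5 of the 6 comparisons, however, each of the 3 correlated best with its own number, a hint from the data and not the design. Over all genes the block called 42 genes for the change of the step into blood, against 11 without it.

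Raw library totals moved the median of all genes by 0.184 (log2) for E8.5 HE over EC and turned the sign of no member. The mean member level in log2(CPM + 1) was then 3.50 in E8.5 HE, 3.03 in E8.5 EC, 3.39 in E9.5 EC and 3.78 in E10.5 EC, and 3.40 in E9.5 EC with DESeq2 size factors. At this depth, levels under 0.188 CPM rest on 3 counts or fewer in at least 1 library.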
